A study of Mus musculus with 2 samples.

Results

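The 39 genes described here encode parts of the transforming growth factor-β (TGF-β) and bone morphogenetic protein (BMP) pathways. They were taken by gene name from the 55536 Ensembl genes of the deposited gene tables, and every name was found. They comprise 13 secreted ligands, 4 latent TGF-β binding proteins (LTBPs), 11 receptors, 8 SMADs and 3 secreted antagonists. The hearts came from female B6CASTF1/J mice, an F1 hybrid between the C57BL/6J and CAST/EiJ strains, aged 18 to 20 months and given no treatment in the labels. Ribosome-depleted total RNA, 300 ng per library with ERCC spike-in RNAs, was sequenced in 2 libraries of this 1 group, replicates 1 and 2. Each has its own biosample but both name the same donor entry, so part of the difference between libraries may be technical. With 1 group there is no contrast of conditions, and no test was made.

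TGF-β is secreted in a latent complex, held inactive by its own propeptide and tied by LTBPs to the extracellular matrix until it is released. An active ligand assembles type I and type II receptor kinases, and the type I receptor phosphorylates a receptor-regulated SMAD: Smad2 and Smad3 after TGF-β or activin, and Smad1, Smad5 and Smad9 after BMP. These join Smad4 and enter the nucleus, while Smad6 and Smad7 inhibit the chain. In the heart TGF-β is known for its part in fibrosis, and BMPs for valve, chamber and vessel development.

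Levels are given as TPM, the relative abundance of a gene's transcripts on a fixed total per library, corrected for transcript length, so that levels of different genes can be compared. They are read from the gene table with the column layout of RSEM unless the table with the layout of kallisto is named. The libraries held 35897521 and 36926429 expected counts, which are estimated reads per gene. All 8 cardiomyocyte markers were present, at a summed 35167 and 33721 TPM in replicates 1 and 2. Of other cell types, 8 mural markers were about as close between the libraries, at a summed 260 and 253 TPM. The sums for 8 macrophage markers were 53.7 and 60.7 TPM. Markers of several further cell types differed more. Summed TPM went from 246 to 607 for 8 adipocyte markers, from 11.2 to 141 for 8 lymphocyte markers, from 1.04 to 285 for 8 lung and airway markers and from 23464 to 11178 for 8 erythroid markers. Among these lists, Sftpc, of the lung, was listed at 0 in both libraries, and Bpifa1, Scgb1a1, Scgb3a2 and Sftpb at 0 in replicate 1. The part of these differences in the members' values was not tested. In tissue RNA fewer cells of a type cannot be told apart from less RNA per cell.

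Most of the pathway was detected, and the LTBPs had the highest class median. At least 1 TPM in both libraries was reached by 28 of the 39 members, or 71.8%, against 21.6% of all annotated genes and 50.1% of nuclear protein-coding genes. These were 6 of 13 ligands, 4 of 4 LTBPs, 10 of 11 receptors, 7 of 8 SMADs and 1 of 3 antagonists. The median TPM was 1.08 ± 0.0849 (SD, n = 2) for ligands, 12.8 ± 0.877 for LTBPs, 6.33 ± 0.636 for receptors and 6.95 ± 0.173 for SMADs. Over nuclear protein-coding genes the median was 1.22 TPM, or 8.52 among those with a mean of 1 TPM or more.

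**Figure D1:**
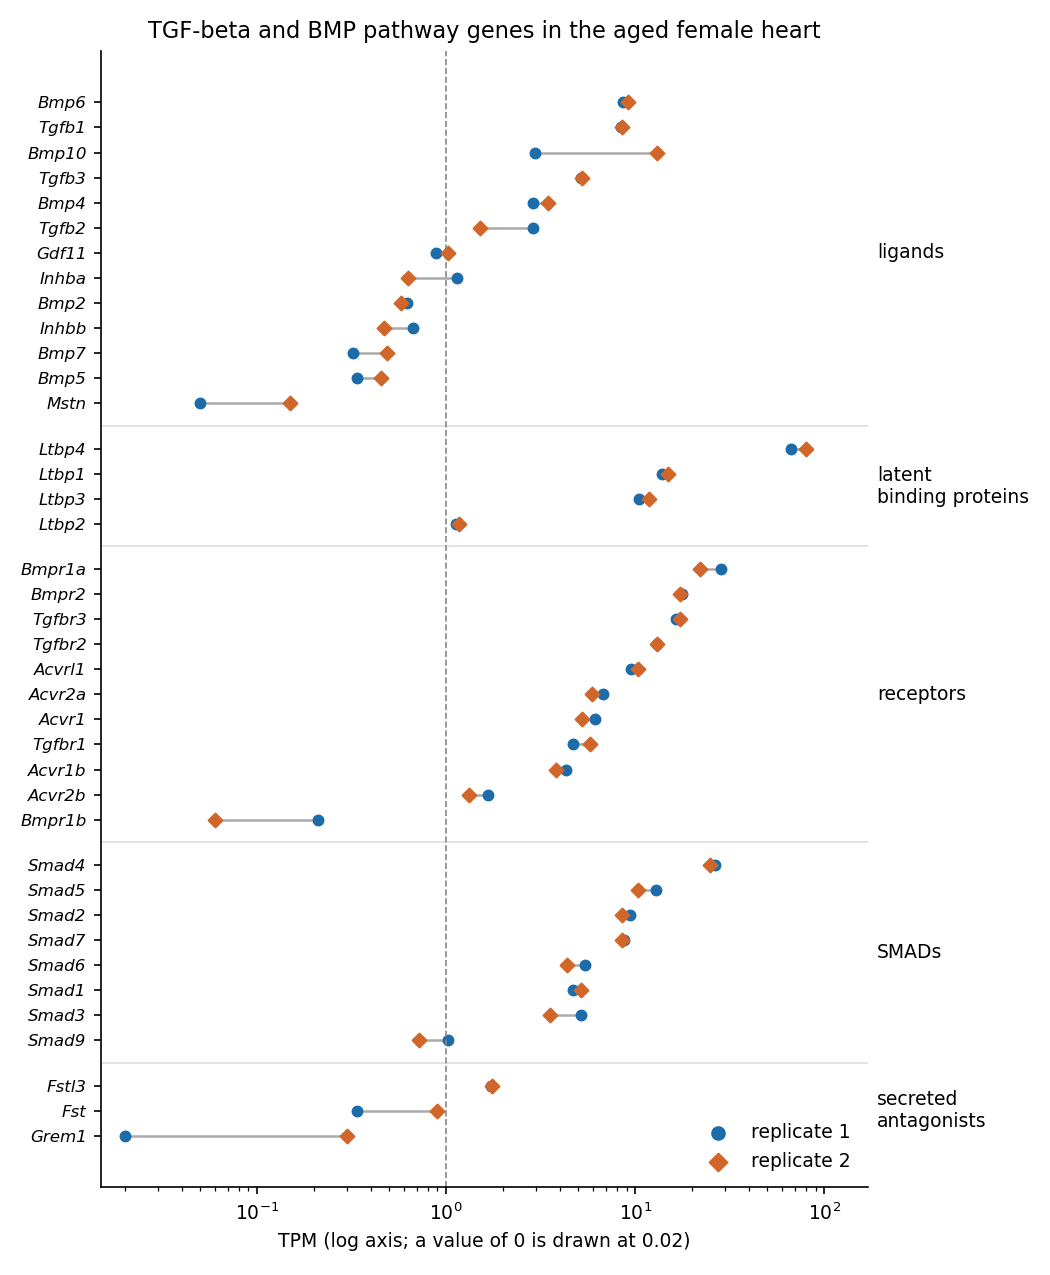
TPM of each of the 39 members in replicate 1 (circles) and replicate 2 (diamonds) on a log axis, grouped by role, with a dashed line at 1 TPM and a value of 0 drawn at 0.02. Ltbp4 lies farthest right in both libraries, most pairs of points nearly touch, and Bmp10 is the widest pair among members with a mean above 1 TPM.

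Among the ligands, Bmp6 and Tgfb1 had the highest means. Bmp6, a BMP best known for control of iron uptake through hepcidin, was measured at 8.63 and 9.12 TPM in replicates 1 and 2. Tgfb1, the TGF-β isoform most studied in fibrosis, had 8.42 and 8.48 TPM. Their order could not be told from the spread between libraries. Tgfb3, another isoform of TGF-β, lay below Tgfb1 in both libraries, at 5.18 and 5.25 TPM. The log2 ratio of Tgfb1 over Tgfb3 was 0.69 and 0.68, a 1.61-fold difference. Bmp4, a ligand active in heart development, was measured at 2.88 and 3.46 TPM. Of this, 0.90 and 1.23 TPM lay on Bmp4-204, a transcript annotated as a retained intron and listed at 0 TPM in the kallisto-layout table. Its close relative Bmp2 was lower, and Bmp4 exceeded it 4.65-fold on the scale of log2(TPM + 0.1). That is a mean log2 ratio of 2.22, against 1.76 in the kallisto-layout table.

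Tgfb2, the isoform needed for valve and outflow tract formation, was the member with the largest gap between the 2 kinds of table. In the RSEM-layout table it had 2.89 and 1.52 TPM, and with the kallisto layout it had 4.36 and 2.56 TPM, 1.57 times as much on average. No other member among the 28 with a mean of 1 TPM or more differed by over 1.5 times, while 15.3% of all such genes did. The extra kallisto-layout signal lay largely on Tgfb2-205, a transcript annotated as a retained intron, with 1.59 and 0.87 TPM there against 0.29 and 0 TPM in the RSEM-layout table. The protein-coding Tgfb2-201 was much closer between the tables, at 2.06 and 1.52 TPM against 1.95 and 1.65 TPM. Both tables placed replicate 1 above replicate 2. The expected counts, 299 and 224, gave a smaller difference than TPM, 1.37-fold with an exact binomial 95% interval of 1.15 to 1.64 that covers counting error only. In replicate 1 part of the RSEM-layout TPM was assigned to the short transcript Tgfb2-203, at 0.54 TPM against 0 in replicate 2.

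Bmp10 was the only 1 of the 28 members with a mean of 1 TPM or more that differed 2-fold or more between the libraries, 3.57% of them, where 4.22% of all such genes differed that much. Of all such genes 3.30% were higher in replicate 2 and 0.919% lower, and among those with means of 1 to 50 TPM 4.48% were apart. Bmp10 encodes a ligand made mainly by atrial muscle that binds the receptor Acvrl1. Its level was 2.95 TPM in replicate 1 but 13.1 TPM in replicate 2. The kallisto-layout table gave 3.05 and 14.2 TPM. Its 362 and 1694 expected counts made a 4.55-fold ratio after scaling to library size, with an interval of 4.06 to 5.11. The gene, ENSMUSG00000030046.6, lies on the plus strand of mm10 at chr6:87428994-87437677, has 1 annotated transcript and shares no run of 31 nt with another gene.

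Bmp10 was set beside 6 markers of atrial muscle. All 6 were above 1 TPM in both libraries and 5 of 6 were higher in replicate 2, and their summed level went from 458 to 1090 TPM, a 2.38-fold ratio. Nppa, the atrial natriuretic peptide, had 228 and 531 TPM. The atrial myosin light chains Myl4 and Myl7 had 99.5 and 257 TPM and 99.4 and 246 TPM. Nr2f2, an atrial transcription factor that other cells also make, was the exception at 6.59 and 5.77 TPM. Per 1000 TPM of the summed markers, Bmp10 stood at 6.44 TPM in replicate 1 and at 12.0 TPM in replicate 2. Set against this sum, the Bmp10 ratio was 1.87-fold in both kinds of table, beside 4.44-fold in TPM alone. Against single markers it ran from 1.72-fold for Myl4 to 2.51-fold for Dkk3 and 5.08-fold for Nr2f2, and Nppa made the largest part of the sum. The adipocyte, lymphocyte and airway sums were also higher in replicate 2. The parts of these and of the atrial share of the sample in the Bmp10 difference were not tested and cannot be told apart here.

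**Figure D2:**
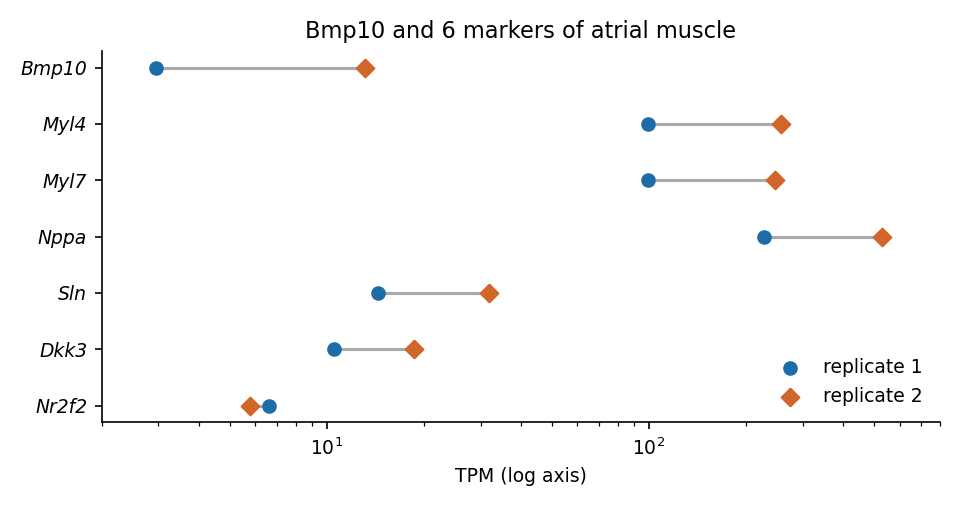
TPM of Bmp10 and of 6 atrial muscle markers in replicate 1 (circles) and replicate 2 (diamonds) on a log axis, ordered by the ratio between the libraries. Bmp10 spans 2.95 to 13.1 TPM, 5 markers are also higher in replicate 2, and Nr2f2 is slightly lower.

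The remaining 7 ligands had mean levels from 0.10 to 0.95 TPM. They were Gdf11, Inhba, Bmp2, Inhbb, Bmp7, Bmp5 and Mstn, in that order. Inhba and Inhbb encode activin β subunits. Inhba had 1.14 and 0.63 TPM, from 155 and 89 expected counts, which gave a 1.79-fold higher level in replicate 1 (interval 1.37 to 2.35). Mstn, which encodes myostatin, the inhibitor of muscle growth, rested on 3 and 11 counts. Gdf11, the ligand closest to it in the family, had 97 and 119 counts and exceeded Mstn 5.41-fold. For Bmp5, 46.2% of the 31-nt runs also occur in the overlapping gene model Gm26903, which was listed at 0 TPM. Only 2 of the 12 neighbouring pairs in the order of the ligands differed beyond the spread between libraries, that is, lay on 1 side in both libraries by more than the libraries differed. Counts of neighbouring pairs, here and for the other classes, have no share over other genes beside them and describe the members alone.

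The LTBPs kept the same order in both libraries, with all 3 neighbouring pairs beyond the spread. Ltbp4 had 67.1 and 80.1 TPM, the highest level of any member and above 96.5% of nuclear protein-coding genes. Ltbp1 had 13.8 and 14.96 TPM, and Ltbp3 10.5 and 11.8 TPM. Ltbp2, the LTBP that does not bind latent TGF-β, was far lower at 1.13 and 1.17 TPM. Ltbp4 made up 72.5% and 74.1% of the LTBP sum in the 2 libraries, and 74.0% and 73.9% in the kallisto-layout table. The summed LTBPs exceeded the 3 TGF-β ligands 5.61-fold in replicate 1 and 7.08-fold in replicate 2. All 4 LTBPs were higher in replicate 2, as were 6101 of 11335 nuclear protein-coding genes with a mean of 1 TPM or more. The median log2 ratio of the LTBPs was 0.14, where the median over all genes with a mean of 1 TPM or more was 0.02. Of 8 fibroblast markers, all above 1 TPM in both libraries, 7 were also higher there, with sums of 481 and 559 TPM. Their part in the LTBP values was not tested.

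Ltbp4 and Ltbp1 each have a long and a short protein form, made from separate starts. The windows before these starts are printed because the transcripts they lead to differed in level, and the window before the single start of Bmp10 is added as the member that varied most. Sequences are from RefSeq promoter entries on GRCm38.p6, the assembly of mm10, written 5′ to 3′ on the gene's strand, with each CG dinucleotide in capitals. The Ltbp4 windows are chr7:27337693-27337862 and chr7:27333664-27333913 on the minus strand. The Ltbp1 windows are chr17:75005279-75005528 and chr17:75178531-75178780 on the plus strand, and the Bmp10 window is chr6:87428744-87428993 on the plus strand. The Ltbp1 windows end before the GENCODE starts used for TPM, at 75005568 and 75178911.
Ltbp4 upstream: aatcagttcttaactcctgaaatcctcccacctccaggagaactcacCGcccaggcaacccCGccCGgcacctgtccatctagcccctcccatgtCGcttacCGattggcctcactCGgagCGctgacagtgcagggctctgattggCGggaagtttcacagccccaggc
Ltbp4 downstream: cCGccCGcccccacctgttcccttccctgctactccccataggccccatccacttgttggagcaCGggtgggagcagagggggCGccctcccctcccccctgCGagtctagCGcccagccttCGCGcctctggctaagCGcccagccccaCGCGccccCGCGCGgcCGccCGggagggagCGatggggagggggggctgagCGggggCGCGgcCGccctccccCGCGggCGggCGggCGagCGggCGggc
Ltbp1 upstream: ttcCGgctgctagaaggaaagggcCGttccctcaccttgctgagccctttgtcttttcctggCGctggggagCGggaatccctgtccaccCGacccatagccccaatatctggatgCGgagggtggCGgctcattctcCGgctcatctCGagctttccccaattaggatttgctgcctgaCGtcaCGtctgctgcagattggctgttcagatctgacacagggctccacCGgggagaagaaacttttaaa
Ltbp1 downstream: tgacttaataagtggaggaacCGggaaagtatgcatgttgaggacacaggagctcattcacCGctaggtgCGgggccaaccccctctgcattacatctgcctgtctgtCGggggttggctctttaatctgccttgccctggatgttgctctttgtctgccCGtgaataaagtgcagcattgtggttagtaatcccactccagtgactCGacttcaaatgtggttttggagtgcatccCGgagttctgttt
Bmp10: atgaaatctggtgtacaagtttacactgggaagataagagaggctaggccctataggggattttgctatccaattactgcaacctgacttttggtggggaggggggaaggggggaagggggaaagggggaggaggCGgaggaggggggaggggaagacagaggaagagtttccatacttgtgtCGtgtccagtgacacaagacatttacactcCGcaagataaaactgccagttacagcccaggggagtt

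The downstream Ltbp4 window is the most CG-rich of the 5, with 28 CG in 250 nt, or 11.2 per 100 nt. The upstream Ltbp4 window has 8 in 170 nt, or 4.71 per 100 nt. Ltbp1 shows the opposite arrangement, with 12 CG before the upstream start and 7 before the downstream start, each in 250 nt. Bmp10 has 3 in 250 nt.

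For Ltbp4, on the minus strand of mm10 at chr7:27305136-27337692, the starts lie 4029 nt apart. Transcripts from the downstream start, led by the 30-exon Ltbp4-205, summed to 64.0 and 71.2 TPM, or 95.4% and 88.9% of the gene. Those from the upstream start, Ltbp4-201 and Ltbp4-202 with 33 exons each, summed to 0.11 and 0.32 TPM. The kallisto-layout table also put the downstream start higher but by much less, at 50.2 and 60.2 TPM against 14.2 and 15.8 TPM. The share of Ltbp4 from the upstream start, 0.164% and 0.400% in the RSEM-layout table and 16.4% and 15.8% in the kallisto-layout table, therefore depends on the table.

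Ltbp1, on the plus strand at chr17:75005568-75392512, has starts 173343 nt apart. Its upstream start, led by the 34-exon Ltbp1-201, gave 9.48 and 10.1 TPM. The downstream start, led by the 30-exon Ltbp1-202, gave 3.62 and 4.19 TPM. In the kallisto-layout table the values were 9.0 and 9.70 TPM upstream and 5.35 and 6.66 TPM downstream. The upstream start was thus the higher in both libraries and both tables, the reverse of Ltbp4.

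**Figure D3:**
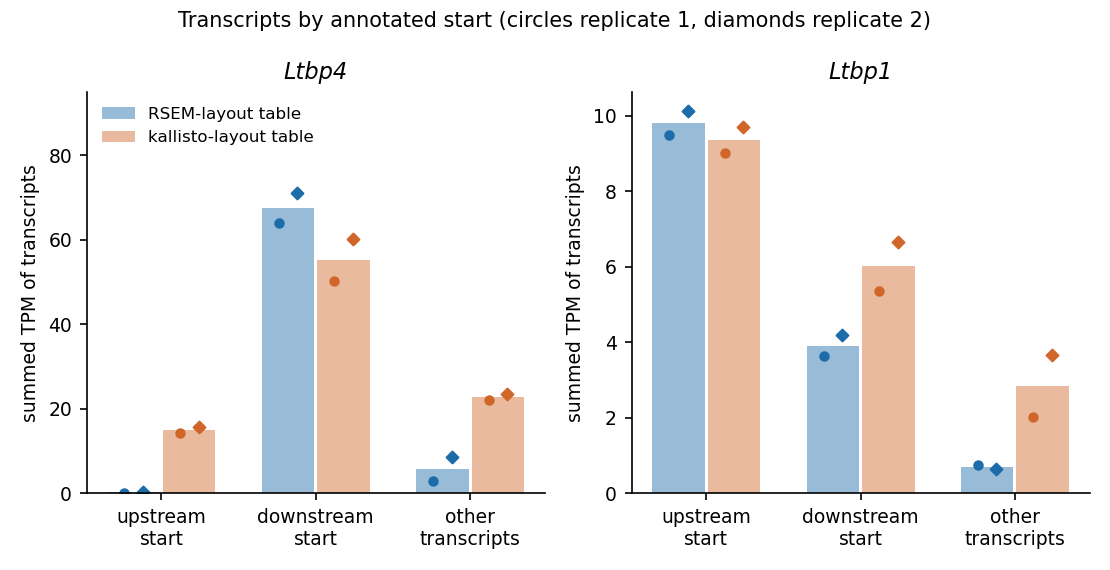
Summed TPM of Ltbp4 and Ltbp1 transcripts from the upstream start, the downstream start and all other annotated starts, with bars for the mean of the 2 libraries, circles for replicate 1 and diamonds for replicate 2. The downstream start leads for Ltbp4 and the upstream start for Ltbp1 in both tables, while the kallisto-layout table gives Ltbp4 more upstream and other transcripts.

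The receptors were led by Bmpr1a, a type I receptor for BMPs, at 28.5 and 22.1 TPM. The gene, ENSMUSG00000021796.15, lies on the minus strand of mm10 at chr14:34410734-34503341. Its expected counts, 3436 and 2666, made it 1.33-fold higher in replicate 1 (interval 1.26 to 1.40). Bmpr1b, its closest relative, had only 16 and 10 counts and 0.21 and 0.06 TPM. Within a library Bmpr1a exceeded Bmpr1b 113-fold on the log2(TPM + 0.1) scale. Acvrl1, the type I receptor for BMP9 and BMP10 on endothelial cells, had 9.52 and 10.3 TPM, and Acvr1, a type I receptor for BMPs, had 6.13 and 5.26 TPM.

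In sum, the type I receptors of the TGF-β and activin branch were lower than those of the BMP branch, in which Bmpr1a made the largest part. Tgfbr1, the TGF-β type I receptor, had 4.69 and 5.80 TPM. Acvr1b, an activin type I receptor, had 4.29 and 3.8 TPM, and the order of these neighbours did not exceed the spread. Summed over Bmpr1a, Bmpr1b, Acvr1 and Acvrl1 the BMP branch reached 44.4 and 37.8 TPM, against 8.98 and 9.60 TPM over Tgfbr1 and Acvr1b. The ratio was 4.94 in replicate 1 and 3.93 in replicate 2, and 5.52 and 4.24 in the kallisto-layout table.

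Type II receptors, which bind ligand and activate the type I receptor, were present for both branches. Bmpr2, the BMP type II receptor, had 17.7 and 17.3 TPM. Tgfbr2, the TGF-β type II receptor, was nearly identical in the libraries at 13.0 and 13.1 TPM, and exceeded its partner Tgfbr1 2.47-fold. Acvr2a and Acvr2b bind activins as well as BMPs. Acvr2a had 6.78 and 5.88 TPM and Acvr2b 1.66 and 1.32 TPM, a 4.06-fold difference. Tgfbr3, the coreceptor betaglycan that presents TGF-β2, had 16.4 and 17.3 TPM. Over the whole class, 7 of 10 neighbouring pairs differed beyond the spread, and the exceptions were Bmpr2 with Tgfbr3, Acvr1 with Tgfbr1 and Tgfbr1 with Acvr1b.

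Smad4, the SMAD shared by both branches, was the most abundant of its family at 26.5 and 25 TPM, 2.21-fold above Smad5. In the BMP branch Smad5 led with 13.0 and 10.4 TPM, followed by Smad1 with 4.67 and 5.15 TPM. Smad9 was the lowest SMAD at 1.03 and 0.72 TPM. In the TGF-β and activin branch Smad2 had 9.38 and 8.51 TPM. Smad3 had 5.17 and 3.53 TPM, and Smad2 exceeded it 2.07-fold. The counts of Smad3, 703 and 519, made it 1.39-fold higher in replicate 1 (interval 1.24 to 1.56).

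Receptor-regulated SMADs of the 2 branches differed far less than their type I receptors. Smad1, Smad5 and Smad9 summed to 18.7 and 16.2 TPM, and Smad2 and Smad3 to 14.6 and 12.0 TPM. The ratio was 1.28 and 1.35, but in the kallisto-layout table it was 0.971 and 1.12, so its direction in replicate 1 turned with the table. Of the inhibitory SMADs, Smad7, which blocks both branches, had 8.70 and 8.52 TPM, and Smad6, which acts mainly on the BMP branch, 5.45 and 4.38 TPM. Smad7 exceeded Smad6 1.75-fold. In replicate 2, 7 of the 8 SMADs were lower in RSEM-layout TPM, all but Smad1, and the median log2 ratio of the class was −0.22. Among the 7 SMADs with a mean of 1 TPM or more it was −0.14. By expected counts scaled to library size, Smad2 and Smad4 were not lower in replicate 2. Their count ratios were 1.00-fold (interval 0.910 to 1.11) for Smad2 and 1.04-fold (interval 0.978 to 1.11) for Smad4. In the kallisto-layout table their log2 ratios were −0.06 and −0.01. Smad7 lay close to no difference, at a log2 ratio of −0.03, and turned to 0.12 in the kallisto-layout table and to 0.02 over nuclear protein-coding genes. Of 11335 nuclear protein-coding genes with a mean of 1 TPM or more, 6101 were higher in replicate 2, and their median log2 ratio was 0.02.

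Among the antagonists, Fstl3 and Fst encode follistatin-like 3 and follistatin, which bind activins and myostatin, and Grem1 encodes gremlin, which binds BMPs. Fstl3 had 1.72 and 1.76 TPM, although 46.7% of its 31-nt runs also occur in Prss57, a gene on the opposite strand with 0.0050 TPM. Fst had 0.34 and 0.90 TPM from 17 and 38 expected counts. Grem1 had no counts in replicate 1 and 36 in replicate 2. Against the 3 counts that a count of 0 allows in that library, Grem1 was at least 11.7-fold higher in replicate 2 if its 36 counts are taken as exact. The exact binomial interval for this ratio began at 9.01. Both Fst and Grem1 had means under 1 TPM.

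Summed over isoforms, the 3 TGF-β ligands reached 16.5 and 15.3 TPM. The 6 BMP ligands reached 15.7 and 27.2 TPM, and without Bmp10 12.8 and 14.1 TPM. The ratio of TGF-β over BMP ligands was therefore 1.05 in replicate 1 and 0.560 in replicate 2. Activin subunits, Mstn and Gdf11 together had 2.74 and 2.27 TPM.

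Of the 28 members with a mean of 1 TPM or more, 24 were within 1.25-fold between the libraries on the scale of log2(TPM + 0.1). Ltbp2 was among them, although its counts differed 1.52-fold. The share of all genes within that limit is not given here, so this count describes the members alone. The median absolute log2 ratio was 0.15 for the 28 and a similar 0.17 for all 12510 genes at that level. Bmpr1a, Tgfb2, Smad3 and Bmp10 were the members beyond 1.25-fold on that scale, with log2 ratios of −0.37, −0.88, −0.54 and 2.11, replicate 2 over replicate 1. Smad5 and Acvr2b lay at the limit, with log2 ratios of −0.32 and −0.31, and counted as within it.

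**Figure D4:**
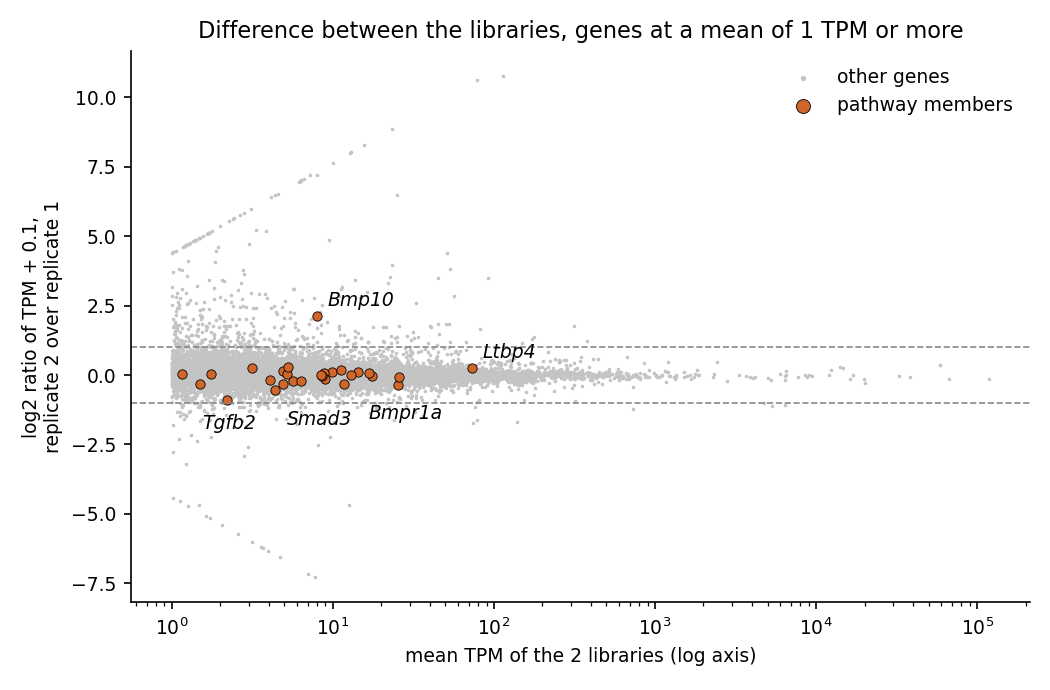
Log2 ratio of TPM + 0.1, replicate 2 over replicate 1, against mean TPM on a log axis for genes with a mean of 1 TPM or more, with the 28 pathway members in orange and dashed lines at 2-fold. Bmp10, at a log2 ratio of 2.11, is the only member outside the lines, and the slanting rows of grey points are genes at or near 0 in 1 library.

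Pairs of related members were also compared within each library. In 27 pairs of relatives, 23 differed in the same direction in both libraries by more than the libraries differed, 10 of them by 4-fold or more. The share for other pairs of genes is not given, so this count describes these pairs alone. The kallisto-layout table gave 22, of which 21 were shared with the same direction. The pairs without a call were Tgfb3 and Tgfb2, Bmp10 and Bmp4, Acvr1b and Tgfbr1, and Fstl3 and Fst. Bmp10 exceeded Bmp4 by a log2 ratio of only 0.03 in replicate 1 and 1.89 in replicate 2.

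Between tables, 26 of the 28 members had a higher mean in the kallisto-layout table, and Bmp4 and Smad5 a lower one. Sharing of sequence with other genes was slight for most members, with under 2% of 31-nt runs shared in 27 of 39. The counting is not stated to use strand, so reads of members that overlap expressed genes on the opposite strand cannot be told apart from theirs. Among these were Tgfb3 with Ttll5 at 6.34 TPM, Bmp6 with Txndc5 at 13.1 TPM and Acvr2a with Orc4 at 14.7 TPM.

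**Figure D5:**
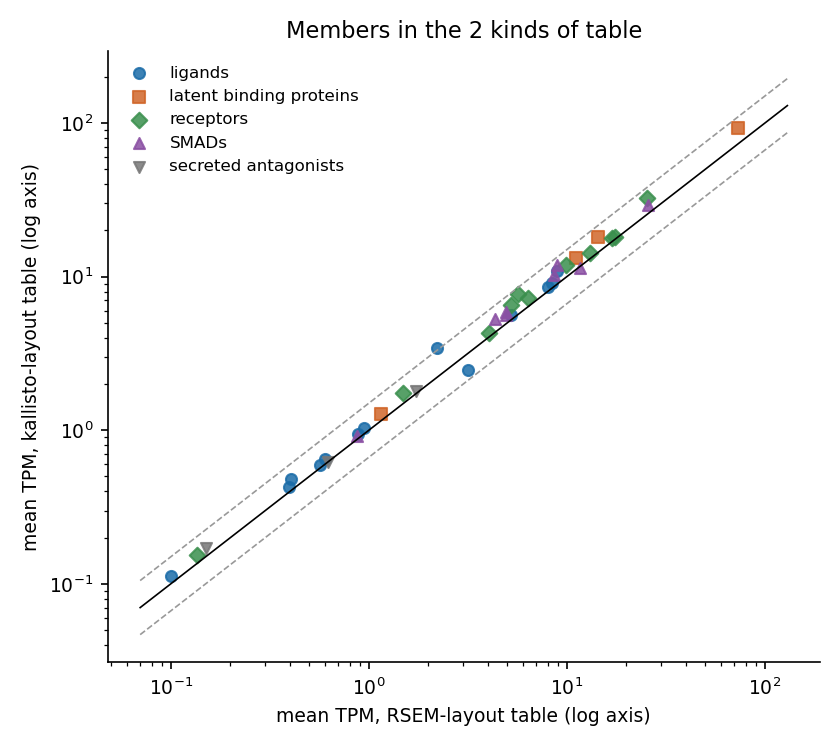
Mean TPM of the 39 members in the kallisto-layout table against the RSEM-layout table, both on log axes, marked by role, with a line of equality and dashed lines at 1.5-fold. Points lie mostly just above the line of equality, and Tgfb2 is the only member outside the dashed lines.

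A single transcript carried most of the level of many members. Among 19 with a mean of 5 TPM or more, the top transcript in the RSEM-layout table was protein-coding in all. It was the same in both libraries in all 19 and, by mean share, the same in both tables in 18. The share over all genes is not given, so these counts describe the members alone. Within the kallisto-layout table the top transcript differed between the libraries in Smad2, Acvr1 and Acvrl1. There Smad2-206 and Acvr1-201 led in replicate 1, and Smad2-201 and Acvr1-204 in replicate 2. The RSEM-layout share of the top transcript had a median of 79.8% and was over 90% in 7, of which 5 were also over 90% in the kallisto-layout table. Between the tables Ltbp4-205 went from 90.8% to 57.0%, Bmp6-201 from 98.2% to 82.2% and Ltbp1-201 from 68.1% to 37.5%. Tgfb1-201 held 96.0%, Bmpr2-201 98.0%, Bmp6-201 98.2% and Acvr2a-201 100%, while Tgfb3 and Bmp10 have 1 annotated transcript each. For both of these genes the top transcript and its share were fixed in advance, though they are counted among the 19. Smad4-201 held 79.8%, Smad5-201 81.1%, Tgfbr3-201 80.7%, Tgfbr1-201 78.0%, Smad7-201 70.1%, Tgfbr2-201 68.9%, Bmpr1a-201 61.9% and Ltbp3-201 53.3%. Levels were most divided in Smad2, where Smad2-201 held 44.5%, in Acvr1, where Acvr1-204 held 41.0%, and in Acvrl1. Acvrl1 was also the member whose top transcript by mean share changed with the table. Acvrl1-205 held 39.0% in the RSEM-layout table but 4.82% in the kallisto-layout table. In the latter Acvrl1-201 led in replicate 1 at 45.1%, with Acvrl1-206 at 41.3%. In replicate 2 Acvrl1-206 led at 38.2%, with Acvrl1-201 at 36.2%.

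RefSeq held a promoter window, 250 nt before to 50 nt after a start, for 30 members, and none for Tgfb3, Bmp2, Bmp7, Tgfbr3, Acvrl1, Smad2, Smad4, Smad7 and Fst. The member windows were rich in CG, with a median of 26 per 300 nt, against 13 in 21263 windows of protein-coding genes. Above that median lay 18 of 22 members with a mean of 1 TPM or more and 4 of 8 below that level. Bmp10 and Ltbp3 were the poorest at 3, and 23.9% of coding windows have that number or fewer. Acvr2a was the richest at 54.

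Motifs were searched as plain letters on both strands, and none of them contains another. GGCGCC, a GC-rich sequence that BMP-branch SMADs can bind, occurred in 8 of 30 windows, 26.7%, against 15.3% of coding windows. Those were the windows of Ltbp4, Tgfbr1, Acvr1b, Bmpr1a, Bmpr2, Smad5, Smad9 and Grem1, and the printed downstream Ltbp4 sequence holds it. GGCGCC itself contains CG, in which the member windows were richer than coding windows, and the part of this in the difference was not tested. Members also have 1 window each, while the coding windows are 21263 for 17492 genes. CAGAC, a short SMAD-binding element, occurred in 13 windows, 43.3%, against 48.4%, and both printed Ltbp1 sequences hold it. TATAAA occurred in 6 windows, 20.0% against 12.6%, namely Tgfb2, Mstn, Gdf11, Inhba, Bmpr1b and Fstl3. Of these, 4 were among the 8 members under 1 TPM. A match describes letters in the window and not a site in use.

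Other genes that act on the same ligands and receptors were read from 4 further lists. Only 2 of 21 other ligands or their processing enzymes reached 1 TPM in both libraries, Bmp1, a protease that cleaves LTBP1 and procollagen, with 4.0 and 4.8 TPM, and Inha, the inhibin α subunit, with 1.72 and 1.19 TPM. The next, Gdf15, had 0.62 and 0.56 TPM. Of 8 other receptors and coreceptors 5 reached that level, and Hjv and Eng exceeded every receptor named above in both libraries. Hjv, the BMP coreceptor hemojuvelin, which the deposited files name Hfe2, had 109 and 108 TPM. Eng, the endothelial coreceptor endoglin that works with Acvrl1, had 51.8 and 41.1 TPM, and Rgma, of the family of Hjv, 24.5 and 19.9 TPM. The 8 endothelial markers, all at 1 TPM or more, summed to 213 and 187 TPM, and their part in the Eng values was not tested.

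Of 13 other secreted antagonists 4 reached 1 TPM in both libraries. Twsg1, which modulates BMP binding by chordin, had 37.1 and 28.8 TPM, Fstl1 18.5 and 16.1 TPM and Nbl1 8.28 and 11.1 TPM. Of 14 genes for latency and activation 11 reached 1 TPM. Gpc1, a glypican, had 179 and 181 TPM, Dcn, the TGF-β-binding proteoglycan decorin, 135 and 142 TPM, and Furin, the protease that cuts the TGF-β propeptide, 48.1 and 44.2 TPM. Lrrc32, which anchors latent TGF-β to the cell surface, was the 1 gene of these lists at 1 TPM or more that was 2-fold apart, at 6.34 TPM in replicate 1 and 2.92 in replicate 2.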

How the data were processed

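Members and gene lists were chosen with earlier results of these data known. Per the deposited readme, all tables refer to mm10 and GENCODE M21. Programs and versions: not given in the sources used here. The authors deposited expected counts (estimated reads per gene or transcript, ambiguous reads divided), TPM scaled to every row (also spike-ins and mitochondrial genes), and a percent share of each transcript in its gene. The kallisto-layout table holds estimated counts and TPM deposited by the authors, summed per gene here. A credibility bound deposited by the authors as a TPM signal was read but supports no result. Reads of a hybrid were assigned to a C57BL/6J-based build, and the effect of this was not tested.

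Totals were 35897521 and 36926429 expected counts, and 36103742 and 37044570 in the kallisto-layout table. A count of 0 allows 3 counts, 0.0836 or 0.0812 CPM. Intervals are 95% exact binomial (Clopper-Pearson) and describe counting error alone, because PCR copies are not separate molecules.

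Levels are means ± SD of 2 libraries. Library ratios and pair ratios used log2(TPM + 0.1), which understates differences of low genes. Each member with a mean of 1 TPM or more, 2-fold or more apart, or over 1.5 times apart between tables was to be given per library, the others by range. From each pathway list the 3 highest genes and those 2-fold apart with a mean of 1 TPM or more were named. All names were matched, Hjv through a RefSeq synonym. Ratios and intervals were tested on simulated data. Alternatives were the other table, the posterior mean TPM, TPM over nuclear protein-coding genes, a pseudocount of 1, no filter, TMM-scaled counts (edgeR 4.0.16, R 4.3.3) and leaving out each replicate. Python 3.11.15, numpy 2.4.6, pandas 2.3.3, scipy 1.17.1 and matplotlib 3.10.9 were used.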

Additional observations from a re-analysis of the deposited data

How the results depend on the processing

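No paired analysis was possible because there is 1 group. The count of members at 1 TPM or more was 28 in the kallisto-layout table and with posterior mean TPM, 33 over nuclear protein-coding genes, and 29 to 30 with 1 library left out. In the kallisto-layout table the medians were 1.17 for ligands, 15.7 for LTBPs, 7.91 for receptors and 8.26 for SMADs. Over nuclear protein-coding genes they were 2.65, 31.5, 15.6 and 17.1, as the scale then sums over fewer genes, and with posterior means 14.1 for LTBPs and 7.23 for SMADs. Leaving out a library gave 1.02 to 1.14, 12.2 to 13.4, 5.88 to 6.78 and 6.83 to 7.08 TPM. Bmp10 was the 1 member 2-fold apart under 4 alternatives, while 2 members were apart over nuclear protein-coding genes, where Fst passes the minimum, and 3 with no filter, with Fst and Grem1. The 23 pairs became 22 to 24. Neither of these last counts has a value with 1 library. None of these results turned its direction, while the SMAD branch ratio did in replicate 1 in the kallisto-layout table. With 2 libraries the SD is itself imprecise, and where a library has under 100 counts, as for Bmp2, Bmp4, Bmp5, Bmp7, Mstn, Gdf11, Inhba, Inhbb, Bmpr1b, Fst, Fstl3 and Grem1, counting error limits any ratio.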

Other observations

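Genes that modulate the pathway inside the cell were broadly present, with 15 of 16 at 1 TPM or more in both libraries and a median of 14.0 ± 2.08 TPM (SD, n = 2). Ppm1a, a phosphatase, had 96.6 and 98.8 TPM in replicates 1 and 2. Fkbp1a, the immunophilin that binds type I receptors and also the ryanodine receptor of heart muscle, had 78.0 and 77.6 TPM. Usp15, a deubiquitinase, had 36.3 and 36.5 TPM. Their log2 ratios between the libraries were 0.03 for Ppm1a, −0.01 for Fkbp1a and 0.01 for Usp15.

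Of 21 known targets of the pathway 18 reached 1 TPM in both libraries, and 14 of 21 were higher in replicate 2. The list's median log2 ratio was 0.12, or 0.14 among the 19 with a mean of 1 TPM or more. Of 11335 nuclear protein-coding genes with a mean of 1 TPM or more, 6101 were higher there, with a median of 0.02. Col1a1 and Col1a2 are also in the fibroblast list, of which 7 of 8 were higher in replicate 2, and the part of this in the targets' values was not tested. Cdkn1a, the cell-cycle inhibitor p21, had 32.4 and 57.9 TPM, Ccn2, the connective tissue growth factor, 30.5 and 50.1 TPM, and Acta2, smooth muscle actin, 46.5 and 40.6 TPM. Hamp, the hepcidin gene, was the 1 target at a mean of 1 TPM or more that differed 2-fold, at 0.81 and 6.79 TPM from 7 and 62.2 expected counts. Many of these genes respond to other signals too.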
